A study of Mus musculus with 11 samples.

Results

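The expression of 10 innate sensing genes was followed in epididymal white adipose tissue (eWAT) of mice with and without a working paternal copy of the imprinted gene Mest: the Toll-like receptors Tlr2, Tlr4, Tlr7, Tlr8 and Tlr13, the lipopolysaccharide co-receptors Cd14 and Ly96, the adaptor Myd88, its inhibitor Irak3, and the inflammasome sensor Nlrp3. They were chosen by gene symbol, and all 10 were among the 15453 genes with a value in every mouse. The tissue came from 6 wildtype (WT) mice and 5 mice that inherited an inactivated Mest allele from the father (pKO), taken from a larger feeding cohort. All were males aged 16 weeks, labelled C57BL/6 and named C57BL/6J in the methods of the study, that had been kept on a high fat diet since week 8, so the diet was common to both genotypes and no animals on another diet were compared. Fatness was not matched: the study reports a higher ratio of fat to lean mass in these WT mice than in the pKO mice. What part this had in the differences below was not tested. Mest is expressed from the paternal allele, and exon 3 had been deleted in the germline with an EIIa-cre transgene that was then bred out. The loss was therefore present in every tissue and cell type, adipocytes and immune cells alike.

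The assay was SAGE (serial analysis of gene expression), where a transcript contributes 1 short tag beside its last NlaIII site, whatever its length. Values are normalized tags, that is, tags divided by the size factor of the library. Recovered totals were 9659740 to 14825727 tags per mouse, with medians of 12592059 in WT against 12621798 in pKO. Mest itself averaged 25107 ± 2672 normalized tags in WT (SD, n = 6) against 1663 ± 566 in pKO (SD, n = 5), and the ranges were apart. The 8 adipocyte markers were all present, summing to at least 691243 normalized tags in every mouse, while none of the 4 epididymis markers was listed in the tables. Each mouse was a separate animal, so the tests below set the difference between genotypes against the spread between mice.

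Toll-like receptors are membrane proteins that recognize microbial molecules. At the cell surface, lipopolysaccharide is handed by Lbp to Cd14 and on to the pair formed by Tlr4 and the protein encoded by Ly96, and Tlr2 binds bacterial lipoproteins together with Tlr1 or Tlr6. In endosomes, Tlr7 and Tlr8 bind RNA and Tlr13 binds bacterial ribosomal RNA. Most of these receptors signal through Myd88 to Irak kinases and NF-κB, Irak3 restrains that step, and Nlrp3 assembles the complex that activates caspase-1. In fat of obese mice the pathway is known mainly from resident and recruited macrophages, although adipocytes also express Tlr4.

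The tags below are those predicted from the GENCODE M21 annotation (GRCm38), and are shown because a tag is what the assay counts. They were not read from the libraries, the annotation behind the deposited values is not given in the sources used here, and some transcripts end elsewhere: the tag printed is the last one in 2 of 5 coding transcripts of Tlr7, 2 of 3 of Tlr8 and 1 of 2 of Tlr4. Each runs 5′ to 3′ from the last NlaIII site of the transcript, and capitals mark that site. The first 3 are the endosomal receptors, followed by the surface receptors and Ly96.
Tlr7: CATGctcagttaaatatttccccta
Tlr8: CATGgatgtgattattttcatcctc
Tlr13: CATGctggggtgggctttagtgatg
Tlr2: CATGgtccagcagctggagaactct
Tlr4: CATGtgtttaagtttaaagagaaaa
Ly96: CATGatgatgactattctttttgca

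The Tlr7 tag lies at chrX:167305125-167305149 on the minus strand, in the 3′ UTR. Its neighbour Tlr8 has its tag at chrX:167242943-167242967, also on the minus strand and within the coding part of the last exon. The Tlr13 tag lies in the 3′ UTR at chrX:106160380-106160404 on the plus strand. For Tlr2 the tag is coding, at chr3:83836777-83836801 on the minus strand, and for Tlr4 it is in the 3′ UTR, at chr4:66842641-66842665 on the plus strand. The Ly96 tag is coding and sits in exon 3 of 5, at chr1:16700884-16700908 on the plus strand, upstream of the last 2 exons. None of these sequences was also the annotated last tag of another gene, so the receptors of the family do not share a tag. The annotated Myd88 tag overlaps Slc22a14, and the Myd88 values carry that uncertainty. The annotated Cd14 transcript has only 1 NlaIII site, in the 5′ UTR, and that site lies 1335 bases from its end. The level of Cd14 may therefore not compare directly with those of the other genes.

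The RNA receptors Tlr7 and Tlr13 and the co-receptor Cd14 were lower in eWAT of pKO mice when genes were called at an unadjusted limma p of at most 0.05 with 50 or more normalized tags on average in a genotype, and no sensing gene was higher. That is 3 of 10 genes, against 3.7% of all 15453 genes called lower and 3.11% called higher by the same rule. No sensing gene reached an adjusted limma p of 0.1, which 0.0324% of all genes did. The log2 fold change (pKO minus WT, on the log2(value + 1) scale) was below 0 for 9 of the 10 genes, compared with 50.4% of all genes, and its median was -0.42 over the 10 and -0.0025 over all genes. The values of the 2 genotypes overlapped for every sensing gene, whereas all pKO values lay under all WT values for 0.673% of genes and over them for 0.569%. In whole tissue, fewer cells of a type and less RNA per cell cannot be told apart. The 10 genes were chosen with earlier results of these data known, so these counts and the shared direction are not independent evidence. Tlr7, Tlr13 and Lbp also stand in gene lists that the study drew from these same mice, so the same holds for their direction.

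**Figure D1:**
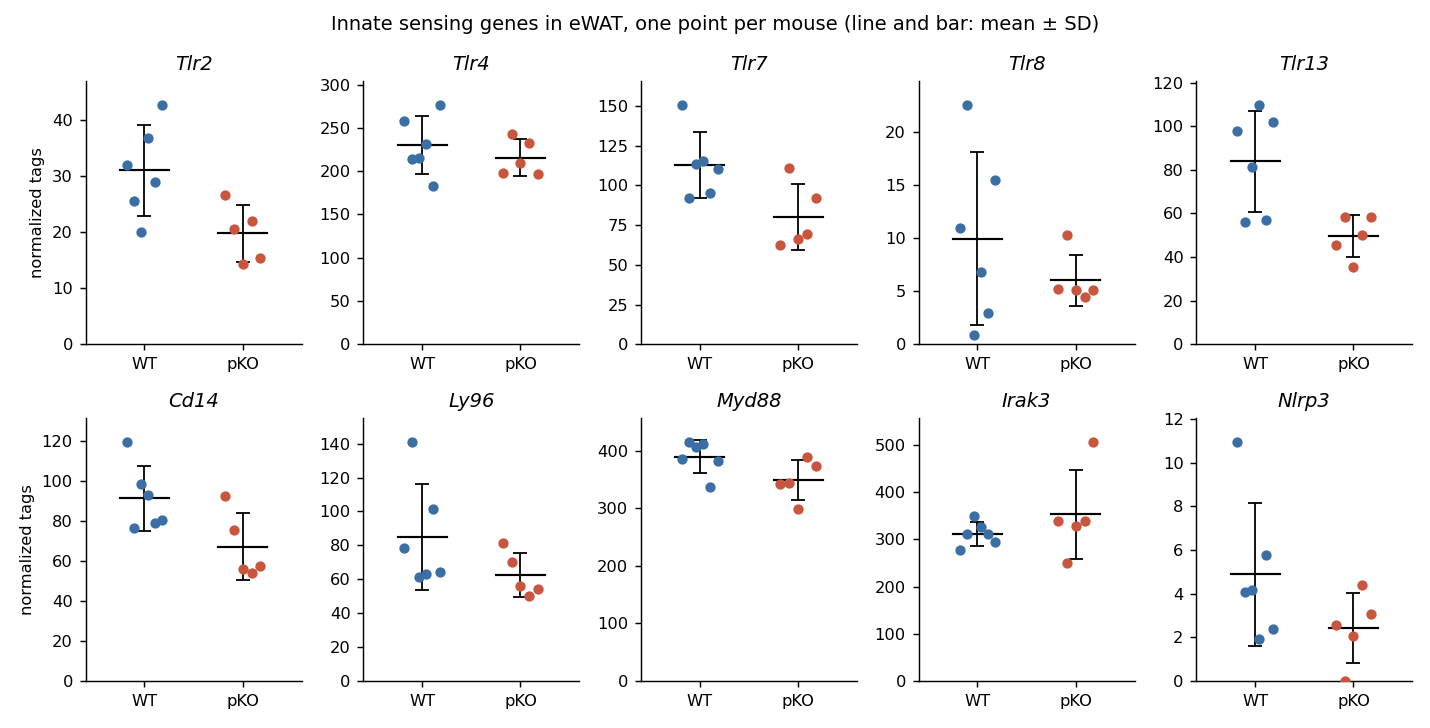
Normalized tags (y axis) of the 10 sensing genes in eWAT, with a point for each of 6 WT and 5 pKO mice, a line at the mean and bars for the SD. Tlr13 lies between 35.6 and 58.4 in the pKO mice and reaches 110 in WT, Tlr4 covers much the same range in both genotypes, and Irak3 has its highest value, 508, in a pKO mouse.

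Of Tlr7, Tlr8 and Tlr13, the endosomal receptors among the sensing genes, Tlr13 had the largest log2 fold change. Its normalized tags had a low of 56.3, a median of 89.4 and a high of 110 in WT mice, and were 45.5, 58.4, 35.6, 50.3 and 58.3 in pKO replicates 1 to 5. In all, 3 pKO mice were under the lowest WT mouse, and 4 WT mice were above the highest pKO mouse. Means were 84.0 ± 23.2 in WT (SD, n = 6) against 49.6 ± 9.58 in pKO (SD, n = 5), a WT level 1.69 times that of pKO. The log2 fold change was -0.72 (SE 0.22; limma p = 0.00604, adjusted p = 0.37), and the exact two-sided permutation test over mice gave p = 0.0238.

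Tlr7 ran from 92.1 through a median of 112 to 151 normalized tags in WT mice, and was 62.7, 111, 66.1, 69.7 and 92.1 in pKO mice. The pKO mice were split, with replicates 1, 3 and 4 under every WT mouse, replicate 5 level with the lowest WT mouse and replicate 2 inside the WT range. Means of 113.0 ± 20.9 (SD, n = 6) and 80.4 ± 20.7 (SD, n = 5) gave a log2 fold change of -0.50 (SE 0.19; limma p = 0.0188, adjusted p = 0.439; exact permutation p = 0.0281). Tlr8, its neighbour on the X chromosome, rested on only 1 to 22 tags per library. It had 0.836, 8.88 and 22.5 normalized tags as the lowest, median and highest WT value, and 5.15, 10.3, 5.09, 4.41 and 5.12 in pKO mice. The log2 fold change of Tlr8 was -0.24, with a 95% interval from -1.46 to 0.98, and its WT values varied widely (coefficient of variation 82.2%), so a difference in either direction was not resolved.

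Endosomal receptors need Unc93b1 to leave the endoplasmic reticulum. Unc93b1 was lower in pKO mice, at 1241 ± 170 normalized tags in WT (SD, n = 6) against 940.3 ± 280 in pKO (SD, n = 5; log2 fold change -0.44, limma p = 0.0327, exact permutation p = 0.0455, adjusted p = 0.485). Its pKO values were 667, 1053, 650.2, 1021 and 1310, so replicates 1 and 3, which were also the lowest for Tlr7, lay far under the WT minimum of 1045 and replicate 5 was well inside the WT range. The double-stranded RNA receptor Tlr3, the most abundant of 12 Toll-like receptor genes in the tables, had 370.3 ± 42.0 in WT (SD, n = 6) against 369 ± 52.1 in pKO (SD, n = 5), with a log2 fold change of -0.01 and a 95% interval from -0.29 to 0.27.

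In the lipopolysaccharide receptor complex, Cd14 passed the test at the unadjusted threshold and Tlr4 and Ly96 did not. Tlr4, which carries the signal across the membrane, ranged from 183 through a median of 223 to 277 normalized tags in WT mice and was 197, 243, 209.6, 232 and 196 in pKO mice. All 5 pKO mice were inside the WT range. Means were 230 ± 33.5 (SD, n = 6) and 216 ± 20.9 (SD, n = 5), with a log2 fold change of -0.08 and a 95% interval from -0.38 to 0.21 (limma p = 0.551, exact permutation p = 0.457; adjusted p = 0.881).

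Cd14, which passes lipopolysaccharide to the receptor, was lower in pKO mice. Its WT values had a low of 76.7, a median of 87.0 and a high of 120, and the pKO values were 92.7, 75.6, 56.0, 53.8 and 57.3 normalized tags. Replicate 1 was the only pKO mouse above the WT median, and the other 4 were under the lowest WT mouse. Means of 91.4 ± 16.3 (SD, n = 6) and 67.1 ± 16.8 (SD, n = 5) differed by -0.45 on the log2 scale (SE 0.19; limma p = 0.0298, adjusted p = 0.47; exact permutation p = 0.0281). The call depended on single animals: it was lost on leaving out any of WT replicates 1 and 3 or pKO replicates 3, 4 and 5, with log2 fold changes from -0.58 to -0.37 over the 11 omissions.

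Ly96, whose product binds the lipid part of lipopolysaccharide, ranged from 61.0 through a median of 71.3 to 141 normalized tags in WT mice and was 81.6, 69.9, 56.0, 50.3 and 54.2 in pKO mice. The WT spread came mainly from replicates 2 and 5, and the genotypes overlapped. Means were 84.9 ± 31.5 in WT (SD, n = 6) against 62.4 ± 13.0 in pKO (SD, n = 5). The WT mean was 1.36 times the pKO mean for both Ly96 and Cd14, with a wider WT spread for Ly96. The log2 fold change was -0.39, with a 95% interval from -0.89 to 0.11 (limma p = 0.118, exact permutation p = 0.154; adjusted p = 0.617).

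Lbp, the binding protein that delivers lipopolysaccharide to Cd14 and is better known as a plasma protein of the acute phase, was far more abundant than any of the 10 sensing genes. It had a low of 10480, a median of 12237 and a high of 14523 normalized tags in WT mice, and 6596, 7651, 7119, 8154 and 3602 in pKO mice. Every pKO mouse was under every WT mouse. The means were 12404 ± 1776 (SD, n = 6) and 6624 ± 1787 (SD, n = 5), the log2 fold change was -0.95 (SE 0.20; limma p = 0.000302, adjusted p = 0.194), and the exact permutation p of 0.00216 was the smallest that 6 against 5 mice allow. Cd36, a scavenger receptor that also assists Tlr2, was the most abundant gene of the receptor and trafficking list, at 36573 in WT against 38371 in pKO (log2 fold change 0.07; limma p = 0.621, exact permutation p = 0.472).

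Relative levels within each mouse put the endosomal receptors beside Tlr4. These ratios were chosen after the values were seen, and 4 were computed. Tlr13 amounted to 0.362 ± 0.0716 of the Tlr4 tags in WT (SD, n = 6) against 0.231 ± 0.0457 in pKO (SD, n = 5), a log2 difference of -0.65 (exact permutation p = 0.00866). For Tlr7 the ratios were 0.494 ± 0.0675 and 0.372 ± 0.0836, with a log2 difference of -0.42 (exact permutation p = 0.0346). The ratio of Cd14 to Tlr4 differed by -0.38 (exact permutation p = 0.0909) and that of Ly96 to Tlr4 by -0.31 (exact permutation p = 0.333). A ratio shows unequal change of its members and does not say which of them changed.

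The lipoprotein receptors were scarce in this tissue. Tlr2 had a low of 20.1, a median of 30.5 and a high of 42.7 normalized tags in WT mice, and 26.6, 20.6, 14.2, 22.1 and 15.3 in pKO mice, from 14 to 38 tags per library. All 5 pKO mice were under the WT median. The log2 fold change was -0.62 (SE 0.24; limma p = 0.0221, adjusted p = 0.452; exact permutation p = 0.0281), but Tlr2 stayed under the minimum mean of 50 and was not counted among the genes called. Without that minimum, 4 of 10 sensing genes were lower and 0 higher, against 5.35% and 4.2% of all genes.

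Of the partners of Tlr2, Tlr6 was lower as well. It averaged 37.998 ± 12.8 in WT (SD, n = 6) against 19.9 ± 5.83 in pKO (SD, n = 5), with a log2 fold change of -0.88 (limma p = 0.00558, exact permutation p = 0.0173; adjusted p = 0.37), also under the minimum mean. Tlr1 was at 35.7 ± 10.2 in WT (SD, n = 6) against 28.3 ± 25.9 in pKO (SD, n = 5), and its pKO values ran from 0.858 to 63.4, so no genotype difference was resolved. Tlr6 and Tlr1 were named after their values were seen.

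**Figure D2:**
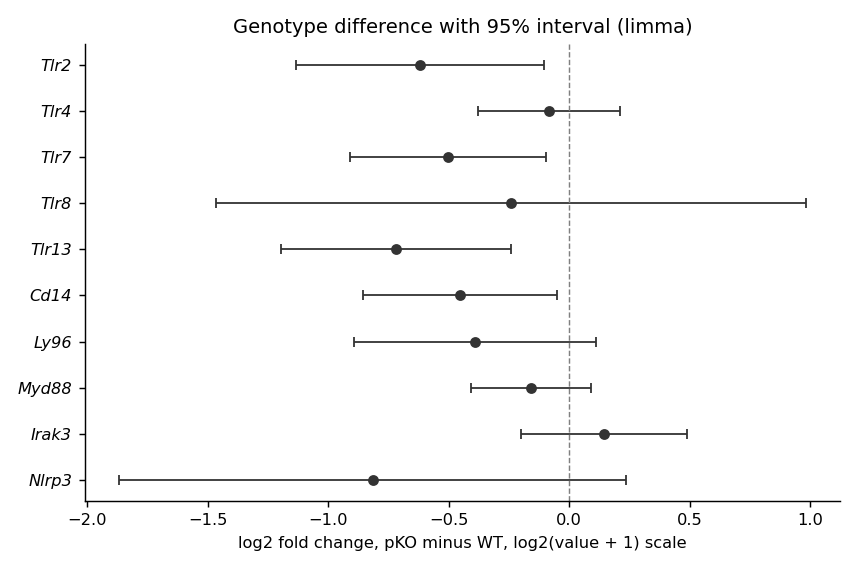
Log2 fold change of each sensing gene, pKO minus WT on the log2(value + 1) scale (x axis), as points with 95% intervals from limma over 6 WT and 5 pKO mice. The intervals of Tlr2, Tlr7, Tlr13 and Cd14 lie below 0, that of Tlr4 runs from -0.38 to 0.21, and those of the sparse Tlr8 and Nlrp3 are widest.

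Downstream of the receptors, neither the adaptor nor its inhibitor passed the test. Myd88 had a low of 337, a median of 396 and a high of 415 normalized tags in WT mice, and 343, 344, 298, 388 and 372 in pKO mice. All pKO mice were under the WT median, yet the shift was small, with a log2 fold change of -0.16 and a 95% interval from -0.41 to 0.09 (limma p = 0.192, adjusted p = 0.688; exact permutation p = 0.0693). Irak3, the kinase-like protein that blocks release of the signalling Irak kinases from Myd88, was the only sensing gene with a log2 fold change above 0. It ranged from 277 through a median of 312 to 349.5 in WT mice, and was 339, 249.8, 329.7, 339.8 and 508 in pKO mice. Replicate 5 alone was above the WT range, and the log2 fold change of 0.14 had a 95% interval from -0.20 to 0.49 (limma p = 0.386, exact permutation p = 0.437; adjusted p = 0.81).

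Nlrp3 was close to the limit of detection, with 44 tags in all 11 libraries together. Its lowest, median and highest WT values were 1.94, 4.14 and 10.96 normalized tags, and the pKO values were 2.58, 0, 2.04, 4.41 and 3.07. The mouse at 0 allows up to 3 tags in its library, a limit that covers counting error only. The log2 fold change was -0.82, with a 95% interval from -1.87 to 0.24 (limma p = 0.118, exact permutation p = 0.136; adjusted p = 0.618), so no change of Nlrp3 was resolved.

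Averaged over all mice, the sensing genes ranked in the order Myd88 (371.03), Irak3 (330.8), Tlr4 (223), Tlr7 (98.2), Cd14 (80.3), Ly96 (74.7), Tlr13 (68.4), Tlr2 (25.9), Tlr8 (8.14) and Nlrp3 (3.77 normalized tags). Irak3 exceeded Tlr4, Tlr4 exceeded Tlr7, Tlr13 exceeded Tlr2 and Tlr2 exceeded Tlr8 in all 11 mice. Neighbours in the middle of the order were not separated, since Ly96 was above Tlr13 in only 5 of 11 mice and Cd14 above Ly96 in 8. At the top the order was not settled: Myd88 was above Irak3 in all 6 WT mice and in 3 of 5 pKO mice, and by mean Myd88 led in WT (389 against 312) while Irak3 was slightly above it in pKO mice (353 against 349), a difference well within the pKO spread. Counted from the most abundant gene, Myd88 stood at rank 4287 of 15453 genes, Irak3 at 4606, Tlr4 at 5769 and Nlrp3 at 14010. The sensing genes thus spread from the upper part of the expression range to its lower end. Among all 12 Toll-like receptor genes, Tlr3 was followed by Tlr4, Tlr7 and Tlr13, and Tlr9 and Tlr5 averaged under 10 normalized tags in both genotypes.

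Another 83 genes of the pathway, listed by role, were examined in the same fit, and 54 of them had a mean of at least 50 in a genotype. At an unadjusted limma p of at most 0.05, 13 of the 83 were lower and 1 was higher in pKO mice, against 3.7% and 3.11% of all genes, and their median log2 fold change was -0.10. None had an adjusted limma p under 0.194, the value of Lbp. In the list of other receptors and trafficking factors, 3 of 16 genes were lower and none higher, namely Lbp, Unc93b1 and Cnpy4, a chaperone of surface Toll-like receptors with 257 ± 62.7 in WT (SD, n = 6) against 180.4 ± 14.1 in pKO (SD, n = 5; log2 fold change -0.48, limma p = 0.013, exact permutation p = 0.0152).

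Of 18 adaptors and kinases, 1 was lower and 1 higher, which is near the shares of 3.7% and 3.11% among all genes, with a median log2 fold change of 0.07. Ikbke, a kinase that activates interferon regulatory factors, had 318 ± 47.9 in WT (SD, n = 6) against 215 ± 55.8 in pKO (SD, n = 5; log2 fold change -0.58, limma p = 0.00524, exact permutation p = 0.0216). Chuk, a catalytic subunit of the IκB kinase, had 313 ± 17.9 in WT (SD, n = 6) against 397 ± 67.1 in pKO (SD, n = 5; log2 fold change 0.33, limma p = 0.0247, exact permutation p = 0.00866), and all 5 pKO values were above the WT median. Irak1, the most abundant kinase of the list, was at 1386 in WT against 1394 in pKO (limma p = 0.956, exact permutation p = 0.965).

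Of 20 transcription factors and inhibitors, 4 were lower and none higher, against 3.7% and 3.11% of all genes. Of these 4, 3 encode the Tnip family, which binds the ubiquitin-editing enzyme A20 and restrains NF-κB. Tnip1 had 521 ± 85.8 in WT (SD, n = 6) against 345 ± 119 in pKO (SD, n = 5; log2 fold change -0.65, limma p = 0.00785, exact permutation p = 0.0195), and 4 pKO mice were under the lowest WT mouse. Tnip3 differed by -0.62 (limma p = 0.00844, exact permutation p = 0.013) and Tnip2 by -0.49 (limma p = 0.0412, exact permutation p = 0.0606). The precursor of the non-canonical NF-κB subunit, Nfkb2, differed by -0.48 (limma p = 0.0256, exact permutation p = 0.0325). Irf3, the most abundant factor of the list, was at 1516 in WT against 1766 in pKO (limma p = 0.398, exact permutation p = 0.448).

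Among the inflammasome genes, 2 of 16 were lower and none higher, against 3.7% and 3.11% of all genes. P2rx7, the ATP-gated channel that triggers Nlrp3, had 137 ± 29.5 in WT (SD, n = 6) against 90.2 ± 22.7 in pKO (SD, n = 5; log2 fold change -0.60, limma p = 0.00783, exact permutation p = 0.0195). Pycard, the adaptor that joins Nlrp3 to caspase-1, had 308 ± 21.6 and 224 ± 73.2 (SD, n = 6 and 5; log2 fold change -0.53, limma p = 0.0285, exact permutation p = 0.00866), and its pKO replicate 1 was the lowest at 107. Txnip, the most abundant gene of the list and a thioredoxin-binding protein, was at 1290 in WT against 1711 in pKO (limma p = 0.229, exact permutation p = 0.288).

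Of 13 inducible target genes in the tables, 3 were lower and none higher, against 3.7% and 3.11% of all genes. Only 5 of the 13 had a mean of at least 50, as the rule requires. Of all 9906 genes with such a mean, 572 were called lower and 480 higher. The acute phase protein Saa3 had 144 ± 87.2 in WT (SD, n = 6) against 47.4 ± 27.5 in pKO (SD, n = 5; log2 fold change -1.57, limma p = 0.00627, exact permutation p = 0.0281), with WT values spread from 42.5 to 291. Il1rn, the secreted antagonist of interleukin-1, differed by -0.73 (limma p = 0.00649, exact permutation p = 0.0216), and the neutrophil chemokine Cxcl1 by -0.49 (limma p = 0.0495, exact permutation p = 0.0714). Ccl2, the monocyte chemokine and the most abundant target, was at 400.4 ± 116 in WT (SD, n = 6) against 310 ± 76.0 in pKO (SD, n = 5, limma p = 0.126, exact permutation p = 0.16). By qRT-PCR in the larger cohort, the study found Ccl2 lower in eWAT of pKO mice.

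**Figure D3:**
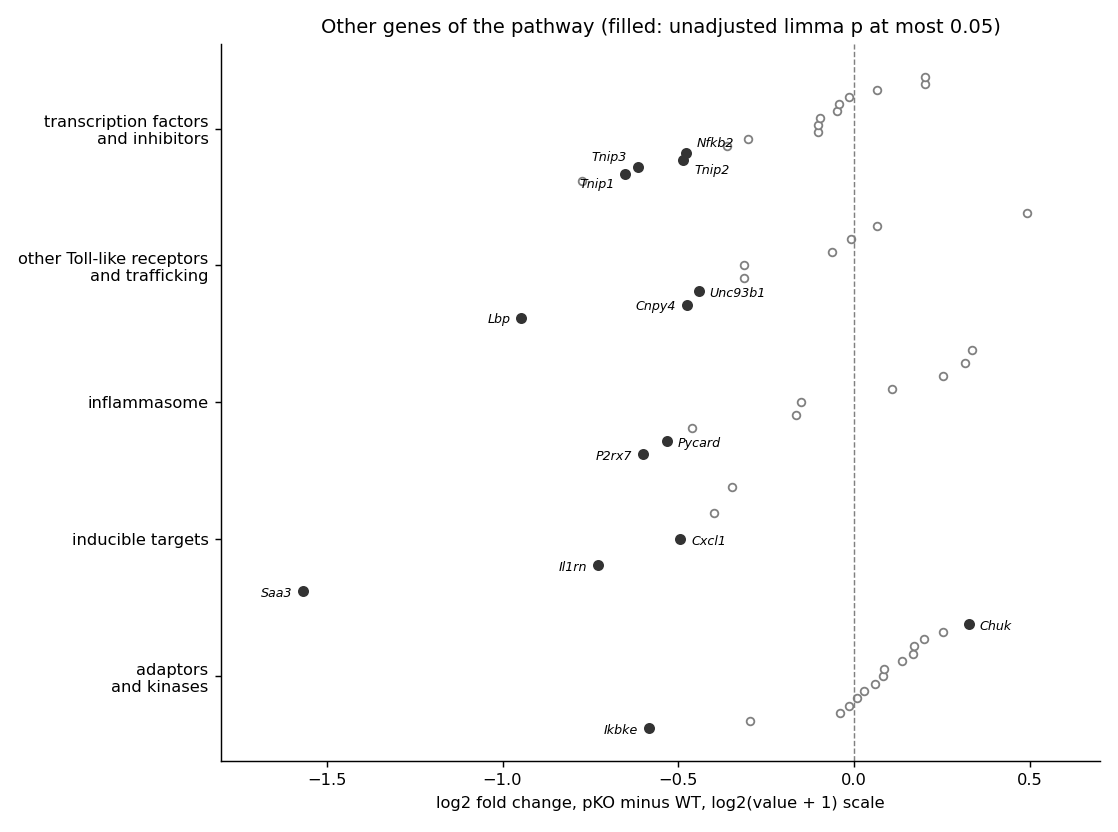
Log2 fold change, pKO minus WT on the log2(value + 1) scale (x axis), of the 54 other pathway genes that averaged 50 or more normalized tags in a genotype, arranged by list (y axis) and spread vertically within each list for legibility. Filled and named points have an unadjusted limma p of at most 0.05, 13 of them below 0 and 1, Chuk, above.

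Some macrophage markers were also lower in pKO mice. By the same rule these were C1qb, Itgam and Itgax, 3 of the 14 on the list, with none higher, against 3.7% and 3.11% of all genes. The other 11 did not pass, among them Mertk (log2 fold change 0.35), Cd163 (0.23) and C1qa (0.07), and neither the sum nor the mean of the list passed an exact test. The summed level was 13729 to 19288 normalized tags in WT (median 18018) and 12177 to 16906 in pKO mice (median 15946; exact permutation p = 0.0844). The mean of log2(value + 1) over the 14 markers was 9.12 ± 0.177 in WT (SD, n = 6) against 8.84 ± 0.268 in pKO (SD, n = 5; exact permutation p = 0.0758). It was lowest in pKO replicates 1 and 3, at 8.51 and 8.59, the mice with the lowest Tlr7, Tlr13 and Unc93b1. Cd14 did not follow this order, being highest among pKO mice in replicate 1 (92.7), and replicate 4, with the highest pKO macrophage mean (9.11), had Tlr7 at 69.7. Emr1, which encodes the defining macrophage antigen F4/80, was present at 856 and 865 in WT and pKO mice. Among WT mice, replicates 2 and 5 had the lowest macrophage means, 9.02 and 8.81, and their Tlr13 values of 56.3 and 56.9 fell within the pKO range.

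With the macrophage mean as a covariate in the limma fit, the log2 fold change of Tlr13 became -0.38 (adjusted p = 0.788) and that of Tlr7 -0.26 (adjusted p = 0.817), and both were over an unadjusted p of 0.05, so their calls were lost. Cd14 kept its size at -0.49 but not its call (limma, adjusted p = 0.773), and Tlr2 was at -0.57 (limma, adjusted p = 0.78). Tlr4 turned to 0.08 (limma, adjusted p = 0.928). Of the fits run, Ly96 was called in this one only, at -0.68 (SE 0.26; limma, adjusted p = 0.74), while Lbp stayed lower at -0.91 (limma, adjusted p = 0.74). The covariate was measured in the same libraries, so the fit describes how the values moved together. Summed mesothelial markers were higher in pKO mice (639 in WT, 992 in pKO, exact permutation p = 0.00433). Of the 4 genes, 2 were called higher, against 3.11% of all genes. The summed stromal markers were also higher (27464 in WT, 33452 in pKO; exact permutation p = 0.0108), but the sum followed Dcn alone (log2 fold change 0.37), and the other 3 genes, Pi16 (-0.58), Col1a1 (-0.03) and Pdgfra (-0.0008), were not called. The summed adipocyte, endothelial, dendritic cell, mast cell, neutrophil, T cell and B cell markers did not pass (exact permutation p from 0.128 to 0.851). The part of the mesothelial and stromal cells in the results was not tested.

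**Figure D4:**
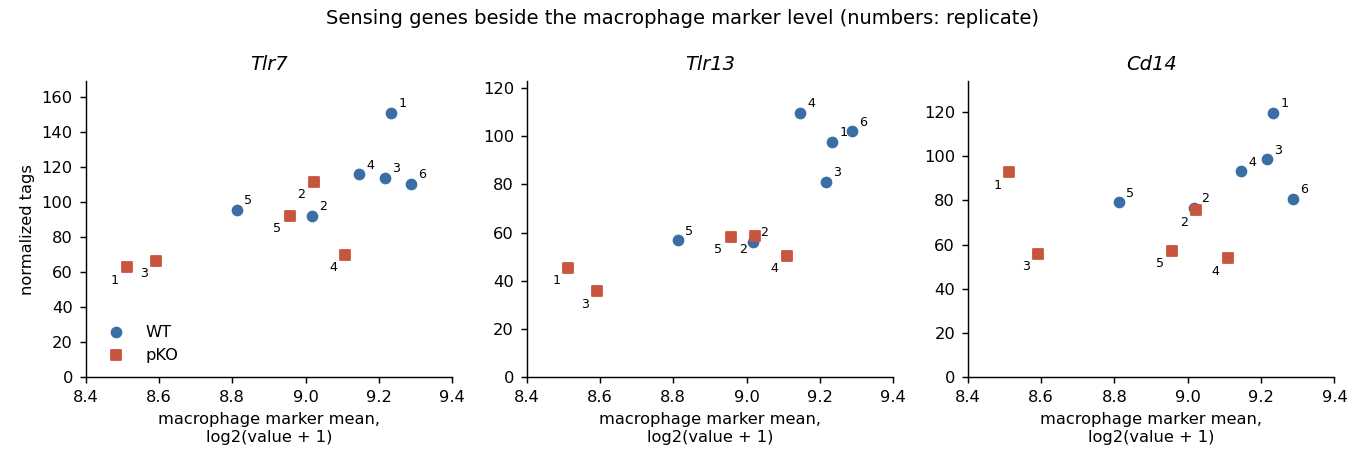
Normalized tags (y axis) of Tlr7, Tlr13 and Cd14 against the mean log2(value + 1) of 14 macrophage markers (x axis) for 6 WT mice (circles) and 5 pKO mice (squares), numbered by replicate. The pKO replicates 1 and 3 lie lowest on the macrophage axis, at 8.51 and 8.59, and WT replicates 2 and 5 lie beside pKO mice for Tlr13.

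The genes whose values followed each sensing gene most closely were found by Pearson correlation of log2(value + 1) over the 11 mice after removing each genotype mean, among genes with a mean of at least 50. They are given as a description, since the points share libraries and the highest of many correlations is high by construction. Tlr7 was most like Tnfaip2 (r = 0.91), Fubp1 (r = 0.904) and Ucp2 (r = 0.889), and Tlr13 was most like Eri1 (r = 0.952), 1700028E10Rik (r = 0.94) and Fbxo17 (r = 0.938). Cd14 was closest to Pnn (r = 0.959), Tpd52 (r = 0.938) and Elavl1 (r = 0.933), and Ly96 to Zbtb26 (r = 0.935), Papd5 (r = 0.908) and Nrip1 (r = 0.9). For Tlr4 the nearest were Wipf1 (r = 0.934), Nop56 (r = 0.913) and Csnk2a2 (r = 0.893), for Tlr2 Atg14 (r = 0.909), H2-Ke6 (r = 0.891) and Ino80d (r = 0.842), and for Tlr8 Snx30 (r = 0.941), Nt5c3l (r = 0.857) and Sap30 (r = 0.822). Myd88 was nearest to LOC101056418 (r = 0.845), Ptplad2 (r = 0.844) and Abcc4 (r = 0.84), Irak3 to Naglu (r = 0.924), Ecm2 (r = 0.912) and Fndc3a (r = 0.903), and Nlrp3 to Limd2 (r = 0.944), Tln2 (r = 0.929) and Comtd1 (r = 0.918). No sensing gene was among the 3 nearest of another.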

How the data were processed

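SAGE libraries of eWAT RNA were sequenced on a SOLiD instrument, and the authors assigned tags to genes with a modified SOLiD SAGE software. The submitters' processing notes name build mm10 and edgeR 3.2.3, and the annotation used is not given in the sources used here. The deposited values are a normalized signal, 1 column for each mouse: all were whole multiples of the value of 1 tag in that library (within 0.01 of a whole number for 100% of 169983 values), from 0.836 to 1.19, so tag counts were recovered. Groups were taken from the labels. Libraries of a genotype differed by more than sampling noise (lowest chi-square per degree of freedom 17.7). Pairs of libraries ran from 17.7 to 49.1 in WT and from 36.8 to 99.8 in pKO mice. The effect of this unequal spread on the tests was not tested.

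From these values, log2(value + 1) of 15453 genes was tested with limma 3.58.1 (trend, Benjamini-Hochberg adjustment over all genes, R 4.3.3), without covariates. A gene was called when its mean was at least 50 in a genotype and its unadjusted p at most 0.05, or its adjusted p at most 0.1. Single values were tested by exact two-sided permutation over all 462 assignments of genotypes (smallest p 0.00216, numpy 2.4.6). Alternatives were other pseudocounts, filters, scalings and tools (edgeR 4.0.16 and DESeq2 1.42.0 on recovered tags), a replicate block, a macrophage covariate and omission of each mouse. The text names the 10 genes, Mest, pathway genes called, Lbp, the most abundant gene of each list and the 3 genes most like each sensing gene; others are named as chosen after their values were seen or stand beside a result. Members and lists were chosen with earlier results of these data known. Tags were read from GENCODE M21 transcripts as 25 bases from the last NlaIII site, and none is printed for Cd14. The scripts were tested on simulated data.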

Additional observations from a re-analysis of the deposited data

Results flagged for a closer look

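The sensing genes and the summed macrophage markers gave 22 groups of mice that were searched for an animal far from the rest, and 1 was found, which is about what chance gives, since it marks about 1 group in 20. Tlr8 was at 10.3 normalized tags in pKO replicate 2, while the other 4 pKO mice lay between 4.41 and 5.15. The gap to the nearest of them made up 0.875 of the range of the pKO group. That library held 9 Tlr8 tags and the other pKO libraries 5 or 6, and Tlr8 did not pass the test with or without it.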

How the results depend on the processing

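Deviations of mice of the same replicate number showed little correlation (from -0.0927 to 0.138). The main fit did not pair the mice, although so few pairs cannot exclude a pairing by number. With a replicate block (WT replicate 6 has no partner and drops out), the calls at adjusted p 0.1 were 1 lower and 0 higher, 2 sensing genes were lower (Tlr7, at -0.51, was no longer called), and 11 other pathway genes were lower and 0 higher. At adjusted p 0.1, the limma fit called 4 genes lower and 1 higher, a fit limited to genes with a mean of at least 10 called 8 lower, DESeq2 called 63 lower and 58 higher, and the macrophage covariate left 1 and 0. Leaving out each mouse gave 2 to 65 lower and 1 to 26 higher. At unadjusted p 0.05, 572 genes were lower and 480 higher (54.4% of calls lower), 737 and 330 with total-count scaling (69.1%), 480 and 515 with edgeR (48.2%), 521 and 607 with DESeq2 (46.2%), 338 and 320 with the covariate, 673 and 543 with a minimum mean of 20, 827 and 649 with none, and 415 to 844 and 328 to 639 on leaving out each mouse. Sensing genes lower numbered 3, or 1 with the covariate, 4 with no minimum mean and 2 to 3 on leaving out each mouse, with 0 higher. Other pathway genes lower numbered 13, or 3 with the covariate and 9 to 16 on leaving out each mouse; higher, they numbered 1, or 2 with the mean of at least 10 or DESeq2, 0 with total-count scaling and 0 to 2 on leaving out each mouse. Tlr4 reversed to 0.081 with the covariate, and Tlr8 ran from -0.66 to 0.071 on leaving out each mouse, positive without WT replicate 2. Tlr7 (-0.63 to -0.42) and Tlr13 (-0.82 to -0.61) kept limma p at most 0.05 in all 11 omissions of a mouse; Tlr2 lost it without WT replicate 6 or pKO replicates 3 or 5. The adjusted p of Tlr13 was 0.388 with edgeR and 0.132 with DESeq2. The causes were not tested. Tlr8 and Nlrp3 had at most 22 and 12 tags in a library, and Tlr8 also varied widely between WT mice, so counting error and spread between animals both enter their intervals.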
